A study of Mus musculus with 12 samples.

Results

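The genes of the constitutive proteasome were followed in BMDMs (bone marrow-derived macrophages) across genotype and stimulus. They were chosen by name, by a rule that used no measured value, though with earlier results of these data known. The set is the 34 genes of the 20S core and of the 19S cap with its assembly chaperones. The subunits of the immunoproteasome were left out, and the array held 32301 genes or transcripts. All 34 had a probe, and all were well above background on 12 of 12 arrays, so that no filter removed any of them. BMDMs were grown from bone marrow with M-CSF for 7 days, from C57BL/6 mice 8 weeks of age. They came from WT mice or from KpCKO mice, which carry *Keap1* flox/flox with LysM-Cre, a recombinase driven by a myeloid promoter. The cells of each genotype were left untreated (Con), stimulated with LPS and IFNγ for 6 h (M1), or stimulated with IL-4 for 6 h (M2). This gave 6 groups of 2 arrays, 1 array from each of 2 independent cultures. Culture 1 came from male mice and culture 2 from female mice, with 1 mouse of each genotype in a culture.

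The proteasome is the protease that breaks down ubiquitin-tagged proteins in the cytosol and nucleus. Its 20S core is a barrel of α and β rings with the protease sites inside, and its 19S cap binds the ubiquitin chain, removes it and drives the unfolded protein into the core. In cells exposed to IFNγ, 3 catalytic β subunits are exchanged for inducible ones, which gives the immunoproteasome and changes the peptides offered on MHC class I. Keap1 presents Nrf2 to a ubiquitin ligase, and Nrf2 that escapes degradation binds the antioxidant response element (ARE), a sequence that is also bound by Nfe2l1 (Nrf1), the factor that raises proteasome genes when proteasome activity is limiting.

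The sequence before the start of 3 subunit genes is shown to mark where the ARE was found. They are *Psmb5*, the subunit gene that passed the genotype test below, *Psmb6*, another catalytic subunit gene, and *Psmd5*. *Psmd5* was the subunit gene with a higher signal in KpCKO than in WT in all 6 pairs of arrays. The 3 genes were picked with their values known, and each holds a match. Each run holds the 250 bases before the gene's start in RefSeq on GRCm38.p6, read on the gene's own strand, at chr14:54617996-54618245 on the minus strand for *Psmb5*, chr11:70525107-70525356 on the plus strand for *Psmb6* and chr2:34870963-34871212 on the minus strand for *Psmd5*. Capitals mark the ARE as searched, TGACNNNGC or TGAGNNNGC on either strand, whose other strand reads GCNNNGTCA or GCNNNCTCA.
Psmb5: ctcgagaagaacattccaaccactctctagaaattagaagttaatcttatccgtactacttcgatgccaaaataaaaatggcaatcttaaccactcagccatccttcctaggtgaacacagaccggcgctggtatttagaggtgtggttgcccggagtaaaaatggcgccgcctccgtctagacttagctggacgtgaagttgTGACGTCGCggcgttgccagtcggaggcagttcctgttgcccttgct
Psmb6: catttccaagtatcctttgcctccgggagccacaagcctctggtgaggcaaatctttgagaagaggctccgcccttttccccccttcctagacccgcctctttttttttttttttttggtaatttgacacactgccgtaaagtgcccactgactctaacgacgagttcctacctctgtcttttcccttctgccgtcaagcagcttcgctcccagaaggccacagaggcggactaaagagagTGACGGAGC
Psmd5: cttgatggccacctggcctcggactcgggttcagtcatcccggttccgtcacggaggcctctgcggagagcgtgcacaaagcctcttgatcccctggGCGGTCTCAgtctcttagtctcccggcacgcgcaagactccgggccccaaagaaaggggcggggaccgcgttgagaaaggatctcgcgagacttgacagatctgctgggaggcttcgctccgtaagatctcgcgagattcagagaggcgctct
In *Psmb5* the match TGACGTCGC began 47 bases before the start, and in *Psmb6* the match TGACGGAGC began 9 bases before it. In *Psmd5* the match lay on the other strand and began 153 bases before the start. Promoter windows of 300 bases, 250 before and 50 after the start, were at hand for 28 of the 34 genes (*Psmb1*, *Psmb2*, *Psmb7*, *Psmc3*, *Psmd3* and *Psmd7* had none). The motif was in the windows of 14 of these 28 genes (50%), against 8314 of 27025 genes with a window (30.8%). In *Psma5*, *Psma7* and *Psmd13* the only match began after the start. A wider form of the motif, TGANNNNGC, was in 16 of 28 (57.1%), against 45% of all genes. CCAAT, on either strand, was in 11 of 28 (39.3%), against 41.1% of all genes. *Psmd10*, the subunit gene with a lower signal in KpCKO in all 6 pairs on the same scale, had 0 matches to the ARE in its window. *Psmd2*, higher in KpCKO by 0.15 on average, had 0 matches too. On average over the stimuli, 8 of the 14 genes with the motif and 7 of the 14 without it were higher in KpCKO. A match describes letters in a window and does not show that a factor binds there.

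Values below are log2 signals relative to the 75th percentile of the signal on the same array, and the brightest probe stands for a gene. Every comparison used limma with a term for the culture, and its p was adjusted over all genes tested (Benjamini-Hochberg). Pairs of arrays limit the precision of every value. The 4 arrays of a stimulus shared a slide, so stimulus and slide cannot be told apart, while WT and KpCKO were always compared inside a slide. M1 arrays had a lower 75th percentile (757 and 548 in WT, 906 and 787 in KpCKO) than those of Con and M2 (966 to 1166). For this reason the M1 results that the text turns on are also given with other scalings between arrays. *Keap1*, the targeted gene, was lower in KpCKO by a log2 difference of −1.66 averaged over the stimuli (SE 0.138, limma adjusted p = 0.000704), and *Nqo1*, an Nrf2 target, was higher by 3.42 (SE 0.0611, limma adjusted p = 1.4e-06).

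**Figure D1:**
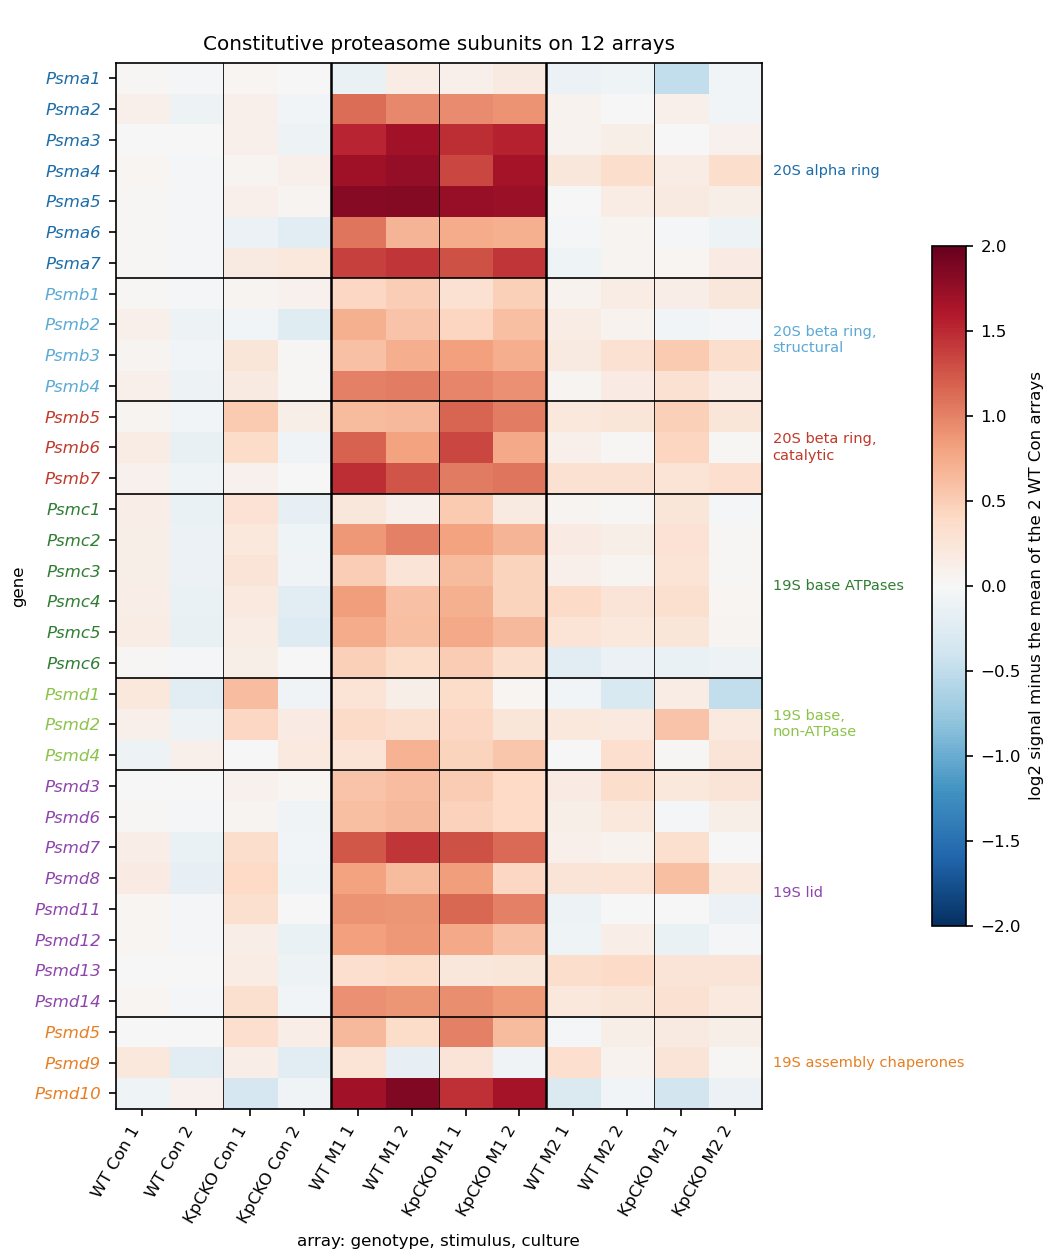
Log2 signal of the 34 subunit genes on each of the 12 arrays, less the mean of the 2 WT Con arrays of the same gene. Columns are arrays in the order of stimulus, genotype and culture, and rows are grouped by subcomplex. The 4 M1 columns stand out in most rows, but not in those of *Psma1*, *Psmc1*, *Psmd1*, *Psmd9* and, in KpCKO, *Psmd2*, whereas WT and KpCKO columns of a stimulus differ little. The M1 columns of WT would lie lower without scaling between arrays, where the median M1 difference of these genes is −0.06.

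The first comparison asked whether the loss of *Keap1* moved the subunit genes. Averaged over Con, M1 and M2, 1 of the 34 genes was higher in KpCKO than in WT and none was lower, where limma called 8.61% of the 22354 genes tested higher and 8.56% lower. The gene was *Psmb5*, whose product carries the chymotrypsin-like site of the 20S core. At an unadjusted p under 0.05, 4 of the 34 passed. Over the 34 genes the median was 0.02, beside −0.02 for all genes tested, and the values ran from −0.16 for *Psmd10* to 0.30 for *Psmb5*. The 95% confidence intervals of the other 33 genes ran from −0.30 at the lowest bound to 0.42 at the highest. Of the 34 genes 18 lay above 0, and this number was 30 with no scaling between arrays, where the median was 0.12 and that of all genes 0.08.

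*Psmb5* had log2 signals of 3.97 and 3.87 in WT Con and 4.44 and 4.03 in KpCKO Con, in cultures 1 and 2. They were 4.55 and 4.57 in WT M1 and 5.09 and 4.94 in KpCKO M1. In M2 they were 4.12 and 4.17 in WT and 4.39 and 4.16 in KpCKO. The KpCKO array was the higher in 5 of the 6 pairs, without overlap of the genotypes in Con and M1 and with overlap in M2. The averaged log2 difference was 0.30 (SE 0.0743, 95% confidence interval 0.13 to 0.48, limma adjusted p = 0.0355), a 1.23-fold difference. It was 0.43 in culture 1 and 0.18 in culture 2. These last 2 values are the differences between mice, and the SE takes the arrays of a mouse as independent. The call held under all 5 scalings tried. It was lost without the culture block (adjusted p = 0.0929), with no filter on dim probes (adjusted p = 0.068) and without any single array except KpCKO Con of culture 2 or WT M1 of culture 2, with adjusted p of up to 0.106.

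Within a stimulus no subunit gene passed the test. In Con this was 0 of 34, where limma called 2.21% of genes, with 3 of 34 at an unadjusted p under 0.05. In M1 it was 0 of 34, where limma called 16%, with 2 of 34 at an unadjusted p under 0.05, and in M2 0 of 34, where limma called 1.93%, with 0 of 34 unadjusted. The difference of *Psmb5* was 0.32 for Con, 0.46 for M1 and 0.13 for M2, at limma adjusted p of 0.334, 0.0549 and 0.736. The median of the 34 genes was 0.07 in Con, −0.07 in M1 and 0.01 in M2. In M1 this depended on the scaling, since with no scaling between arrays the median was 0.32 and 9 of 34 genes were called higher, while the median of all genes moved from −0.09 to 0.30. Relative to the median of all genes, the subunit genes lay 0.02 higher in M1 in either case, but 0.13 higher with quantile normalization and 0.17 higher with normexp background correction.

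**Figure D2:**
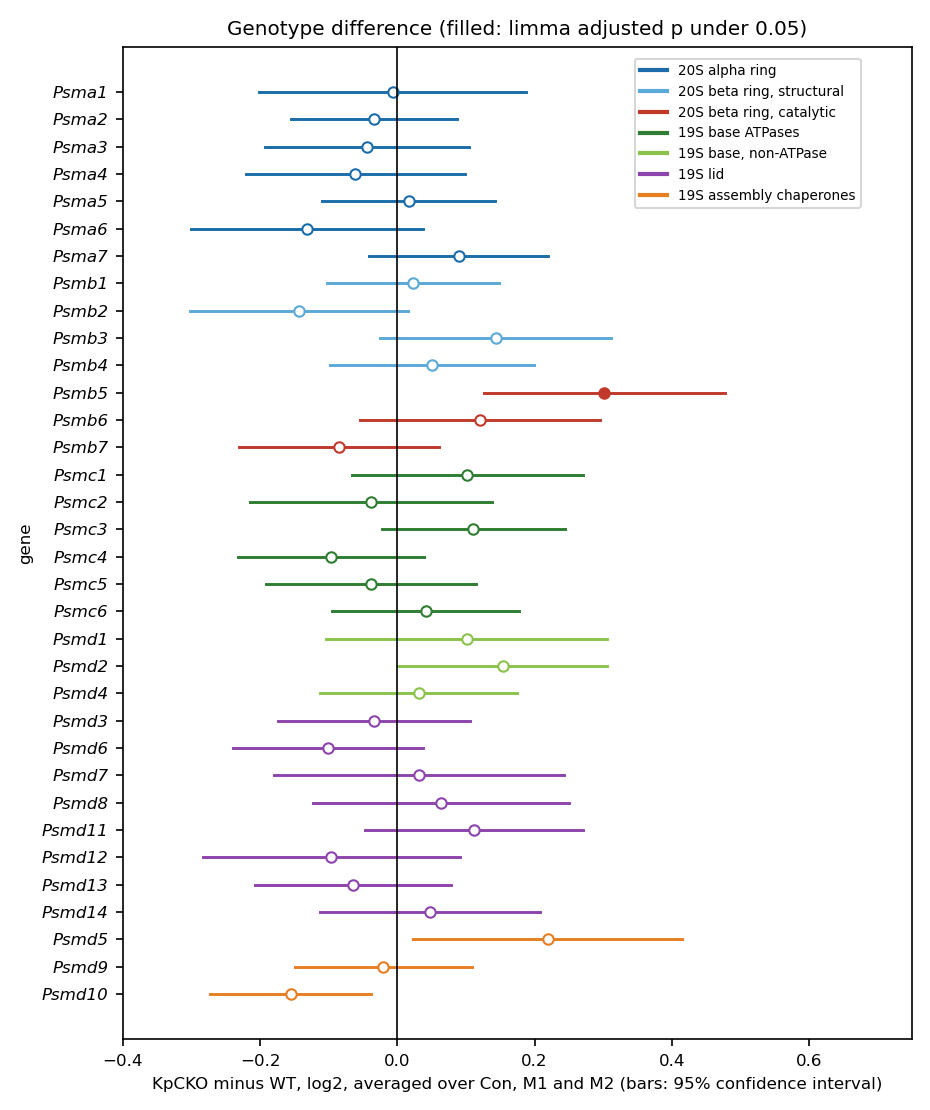
Log2 difference between KpCKO and WT, averaged over Con, M1 and M2, for each of the 34 subunit genes. Points are limma estimates from 12 arrays, bars are 95% confidence intervals, colours are subcomplexes, and the filled point marks the gene with an adjusted p under 0.05. Only *Psmb5*, at 0.30, is filled, and most intervals include 0.

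The α ring of the 20S core forms the gate that substrates pass. None of its 7 genes passed the test between the genotypes. *Psma6* had the largest averaged difference of the ring, −0.13 (SE 0.0713, limma adjusted p = 0.249), and *Psma1* the smallest, −0.01 (SE 0.0819, limma adjusted p = 0.965). Among the 4 structural β genes, the averaged difference was 0.14 for *Psmb3* (SE 0.0711, limma adjusted p = 0.209) and 0.02 for *Psmb1* (SE 0.0528, limma adjusted p = 0.803), with *Psmb2* at −0.14.

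Of the catalytic β genes, *Psmb6* (the caspase-like site) and *Psmb7* (the trypsin-like site) did not pass. *Psmb6* was at 5.57 and 5.28 in WT Con and 5.79 and 5.36 in KpCKO Con, at 6.61 and 6.23 in WT M1 and 6.75 and 6.18 in KpCKO M1, and at 5.53 and 5.45 in WT M2 and 5.85 and 5.45 in KpCKO M2. Its arrays of culture 1 were above those of culture 2 in all 6 groups, and the genotypes overlapped in each stimulus. The averaged difference was 0.12 (SE 0.0738, limma adjusted p = 0.303). *Psmb7* was at 2.78 and 2.62 in WT Con and 2.79 and 2.71 in KpCKO Con, at 4.18 and 3.96 in WT M1 and 3.74 and 3.78 in KpCKO M1, and at 3.0 and 3.0 in WT M2 and 2.98 and 3.04 in KpCKO M2. In M1 both KpCKO arrays of *Psmb7* lay below both WT arrays, by a log2 difference of −0.31 (SE 0.107, limma adjusted p = 0.0906). This difference was −0.15 with quantile normalization and −0.46 with normexp, and it turned to 0.08 with no scaling between arrays. Averaged over the stimuli it differed by −0.08 (SE 0.0616, limma adjusted p = 0.382).

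Of the 6 ATPases of the 19S base, which unfold the substrate, none passed the test between the genotypes. *Psmc3* showed the largest averaged difference, 0.11 (SE 0.0563, limma adjusted p = 0.22), and *Psmc5* the smallest, −0.04 (SE 0.0647, limma adjusted p = 0.724). The non-ATPase genes of the base encode the large scaffolds *Psmd1* and *Psmd2* and the ubiquitin receptor *Psmd4*, and *Psmd2* differed by 0.15 (SE 0.0644, limma adjusted p = 0.148) and *Psmd4* by 0.03 (SE 0.0604, limma adjusted p = 0.76). In the lid, which holds the deubiquitinase *Psmd14*, the averaged difference was 0.11 for *Psmd11* (SE 0.0668, limma adjusted p = 0.291) and 0.03 for *Psmd7* (SE 0.089, limma adjusted p = 0.841).

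The 3 chaperones that assemble the 19S base held both genes whose genotype difference had a single sign in all 6 pairs of arrays. The 6 pairs came from 1 pair of mice in each of 2 cultures, so they are not 6 independent comparisons. *Psmd5* was at 1.79 and 1.80 in WT Con and 2.14 and 1.93 in KpCKO Con, at 2.45 and 2.16 in WT M1 and 2.80 and 2.43 in KpCKO M1, and at 1.76 and 1.92 in WT M2 and 1.97 and 1.92 in KpCKO M2. The KpCKO array was the higher within every culture and stimulus, and by 0.22 on average (SE 0.0829, limma adjusted p = 0.117). In M2 of culture 2 both genotypes were at 1.92, with a 75th percentile of 966 in KpCKO and 1007 in WT. With no scaling KpCKO lay below WT in that pair, so the single sign of *Psmd5* rested on the scaling. *Psmd10* (gankyrin) was at 1.6 and 1.77 in WT Con and 1.35 and 1.62 in KpCKO Con, at 3.36 and 3.53 in WT M1 and 3.15 and 3.35 in KpCKO M1, and at 1.4 and 1.63 in WT M2 and 1.32 and 1.58 in KpCKO M2. Its KpCKO array was the lower in every pair, by −0.16 on average (SE 0.0495, limma adjusted p = 0.0752). With no scaling between arrays *Psmd10* was the higher in KpCKO M1, by 0.19, and the average was −0.06, so its single sign rested on the scaling. *Psmd9* differed by −0.02 (SE 0.0545, limma adjusted p = 0.83). A higher KpCKO signal in all 6 pairs was seen in 1 of 34 subunit genes against 11.6% of genes, and a lower one in 1 of 34 against 13.4%. The cultures differed more often in a single direction, as 9 of 34 genes were higher in culture 1 in all 6 groups, against 14% of genes, and 2 were lower, against 13.8%. The 75th percentile was higher in culture 1 than in culture 2 in all 6 groups, so these counts depend on the scaling. The sex of the mice and the culture cannot be told apart.

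The averaged genotype difference was also set beside the ARE. Over the 14 genes with the motif in their window the median was 0.03, with a range of −0.13 to 0.30 and 8 genes above 0. Over the 14 genes without it the median was 0.01, with a range of −0.16 to 0.15 and 7 above 0. The 6 genes without a window had a median of −0.01. These are descriptions, and the presence of the motif was searched in 1 window a gene start only.

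The arrays hold RNA of the whole culture, so that fewer cells of a type and less RNA per cell cannot be told apart. Of the macrophage markers, 6 of 7 were on the array, all above background on 12 arrays, with a summed signal of 473 to 804 times the 75th percentile in WT and 375 to 562 in KpCKO. *Lyz2*, *Fcgr1* and *Adgre1* were lower in KpCKO by averaged log2 differences of −0.71, −0.85 and −0.24 (limma adjusted p = 0.0256, 0.013 and 0.0336). *Lyz2* is the lysozyme M gene, whose locus drives Cre in KpCKO mice. The part of that allele in the value of *Lyz2* was not tested. The neutrophil markers, of which 7 of 8 were on the array and *Elane* was above background on no array, summed to 7.20 to 16.5 in WT and 3.15 to 16.1 in KpCKO. Among them *Mpo* was higher by 1.06 in KpCKO (limma adjusted p = 0.0349), while the summed signals of the genotypes overlapped and reached lower in KpCKO. The differences of the other macrophage and neutrophil markers are not given here, so the named genes do not stand for their lists. The 3 stroma markers, all above background on 12 arrays, summed to 29.4 to 39.1 in WT and 22.1 to 52.5 in KpCKO. The part of these cell types in the difference of *Psmb5* was not tested.

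The second comparison asked how the subunit genes moved with the M1 stimulus. In WT 30 of the 34 genes were higher in M1 than in Con and none was lower by limma's test with the 75th percentile as the scale, but with no scaling between arrays 7 were higher and 7 lower, and with quantile normalization 8 were higher and 3 lower. Limma called 34.6% of all genes higher in WT M1 and 28.7% lower. In KpCKO 28 of the 34 were higher and none lower, against 16 higher and 0 lower with no scaling and 16 higher and 1 lower with quantile normalization, where limma called 24.8% of all genes higher and 25.4% lower. Over the 34 genes the median was 0.69 in WT and 0.67 in KpCKO, and that of all genes tested was 0.13 and 0.03. In WT this median was 0.18 with quantile normalization and −0.06 with no scaling, where the median of all genes was −0.08 and −0.62. The subunit genes thus lay above the median of all genes by 0.57, 0.26 and 0.57 in WT, and by 0.64, 0.32 and 0.64 in KpCKO.

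**Figure D3:**
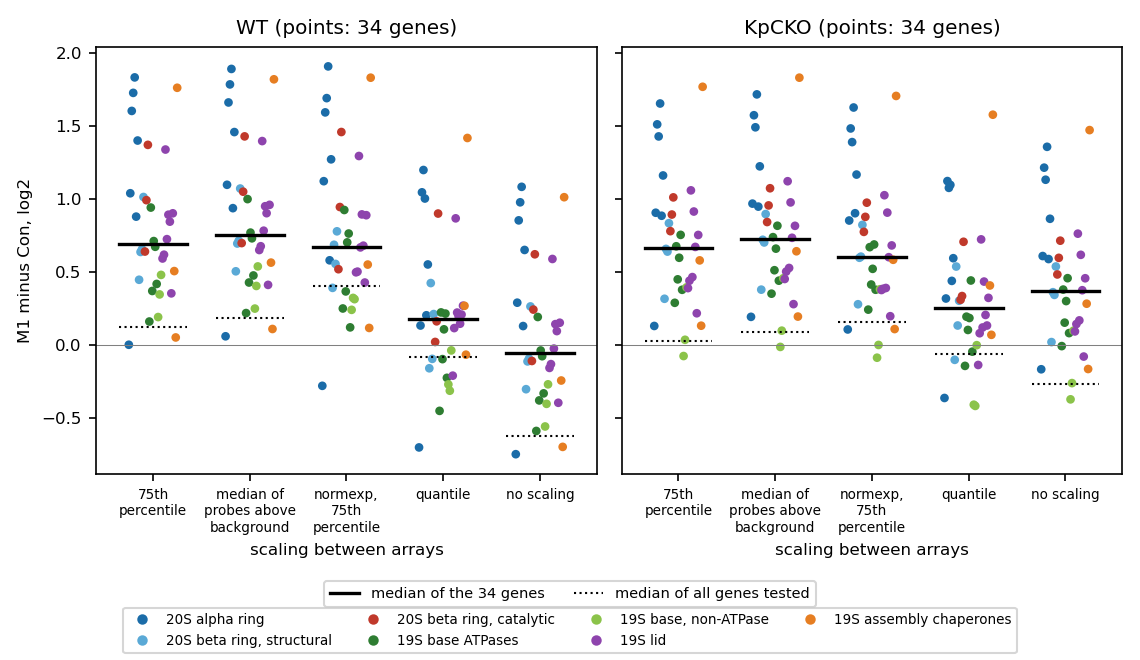
Log2 difference between M1 and Con of the 34 subunit genes, coloured by subcomplex, in WT (left) and KpCKO (right) under 5 scalings between arrays. Solid bars are the median of the 34 genes and dotted bars the median of all genes tested. In WT the median of the 34 genes falls from 0.69 with the 75th percentile to 0.18 with quantile normalization and −0.06 with no scaling, and stays above the dotted bar in each.

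Both WT M1 arrays lay above both WT Con arrays in 30 of the 34 genes (88.2%), against 43.8% of the 22084 genes measured on all arrays, and both KpCKO M1 arrays above both KpCKO Con arrays in 30 of 34, against 35.5%. All 4 M1 arrays were above all 4 Con arrays in 28 of the 34 genes, against 27.6%. Among the 5805 genes whose mean level lay in the range of the subunit genes, limma called 40.9% higher with M1 in WT, against 33.9% in KpCKO, with median differences of 0.14 and 0.09. These shares rest on the 75th percentile.

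Under all 5 scalings 7 genes were called higher in M1 in WT and 14 in KpCKO, and the 7 of WT were among those of KpCKO: *Psma3*, *Psma4*, *Psma5* and *Psma7* of the α ring, *Psmb7*, the lid gene *Psmd7* and the chaperone *Psmd10* (singled out after their values were seen). *Psma5* was at 5.45 and 5.39 in WT Con and 5.51 and 5.48 in KpCKO Con, and at 7.24 and 7.26 in WT M1 and 7.16 and 7.14 in KpCKO M1. Its 4 arrays of a stimulus lay close together, and M1 and Con did not overlap. The log2 difference was 1.83 in WT (SE 0.0922, 3.56-fold, limma adjusted p = 1.13e-05) and 1.65 in KpCKO (3.14-fold, limma adjusted p = 2.92e-05), and 1.08 in WT with no scaling. *Psmd10*, whose arrays are given above, rose by 1.76 in WT (SE 0.0857, limma adjusted p = 1e-05) and by 1.77 in KpCKO (limma adjusted p = 1.82e-05), and by 1.01 in WT with no scaling. The rise of the other 5 genes ran from 1.34 to 1.73 in WT and from 1.01 to 1.51 in KpCKO.

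Of the 7 genes of the α ring 6 rose in each genotype, with a median log2 difference of 1.4 in WT and 1.16 in KpCKO. *Psma1* stayed apart, at 5.04 and 5.00 in WT Con, 5.05 and 5.01 in KpCKO Con, 4.88 and 5.17 in WT M1 and 5.13 and 5.20 in KpCKO M1. The WT arrays of the M1 and Con groups overlapped, and the log2 difference was 0.00 in WT (95% confidence interval −0.33 to 0.34, limma adjusted p = 0.986) and 0.13 in KpCKO (limma adjusted p = 0.473), but −0.74 in WT with no scaling, where it was called lower. The upper end of its interval in WT lay below the estimated rise of the other 6 genes, the lowest of which was 0.88 for *Psma6*. This leaves out the error of the other estimates, and a difference between genes was not tested. *Psma1* was set apart after its values were seen. Each of these genes was read by its own probe, and a probe's sensitivity can differ from that of another.

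All 4 structural β genes rose in both genotypes, with medians of 0.65 in WT and 0.65 in KpCKO. *Psmb4* rose most, by 1.01 in WT, and *Psmb1* least, by 0.45. The sign of *Psmb1* and *Psmb3* turned in WT with quantile normalization, to −0.16 and −0.09, and with no scaling, to −0.30 and −0.09. *Psmb2* turned to −0.11 in WT with no scaling. *Psmb4* stayed above 0 under all 5 scalings in WT and in KpCKO.

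Among the ATPases 5 of 6 rose in WT and the same number in KpCKO, *Psmc1* being the exception in each. The median was 0.55 in WT and 0.52 in KpCKO, with *Psmc2* the highest in WT at 0.94 (limma adjusted p = 0.000689), and *Psmc1* was at 0.16 (limma adjusted p = 0.282). With no scaling *Psmc3*, *Psmc4*, *Psmc5* and *Psmc6* turned below 0 in WT, at −0.38, −0.04, −0.08 and −0.33, and *Psmc3* was called lower. *Psmc1* was called lower in WT with no scaling and with quantile normalization. The non-ATPase genes of the base moved least, with 2 of 3 called in WT and 1 of 3 in KpCKO, and medians of 0.35 and 0.04. *Psmd4*, the ubiquitin receptor, was the gene called in both, with 0.48 in WT and 0.40 in KpCKO, and it was at −0.27 in WT with no scaling. *Psmd1* was at 0.19 in WT and −0.07 in KpCKO (limma adjusted p = 0.295 and 0.71), and it was called lower in WT with no scaling. *Psmd2*, called higher in WT, was instead called lower there with no scaling and with quantile normalization. In KpCKO *Psmd2* was called lower with quantile normalization.

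All 8 lid genes rose in WT and 7 in KpCKO, *Psmd13* missing the threshold there at 0.22 (limma adjusted p = 0.124), with medians of 0.78 and 0.57. *Psmd7*, the partner of the deubiquitinase in the lid, rose most, by 1.34 in WT and 1.06 in KpCKO, and *Psmd14*, the deubiquitinase, by 0.90 and 0.75. *Psmd3*, *Psmd6*, *Psmd8* and *Psmd13* were below 0 in WT with no scaling, and *Psmd13* was called lower. The 3 chaperones parted, since *Psmd10* and *Psmd5* rose, *Psmd5* by 0.51 in WT and 0.58 in KpCKO, whereas *Psmd9* was at 0.05 and 0.13 (limma adjusted p = 0.642 and 0.277). *Psmd5* was at −0.24 in WT with no scaling, where *Psmd9* was called lower.

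Several probes were spotted for 9 of the 34 genes, with 10 further probes in all. In WT the M1 difference of a further probe departed from that of the probe used by a median of 0.12 and by up to 0.39, the latter for 1 of the further probes of *Psmd12*. For *Psmd9* the further probe gave −0.23 and for *Psmd2* 0.23, beside 0.05 and 0.35. The averaged genotype differences of the probes of a gene departed by up to 0.11.

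The M1 differences of WT and KpCKO were alike across the 34 genes, with a Pearson correlation of 0.957 and a Spearman correlation of 0.955 across genes, which share arrays and are not independent replicates. The difference was the smaller in KpCKO in 23 of 34 genes, but in 9 of 34 with quantile normalization and in 0 of 34 with no scaling between arrays. Limma called 0 of 34 genes for a difference between the genotypes in the M1 response, where it called 0.0716% of all genes, and 1 of 34 was under an unadjusted p of 0.05. That gene was *Psmb7*, at −0.36 (SE 0.151, limma adjusted p = 0.303). The values of the 34 ran from −0.36 to 0.14 with a median of −0.12, beside −0.07 for all genes. This median was 0.08 with quantile normalization, beside 0.03 for all genes, and 0.33 with no scaling, beside 0.38 for all genes, and the value of *Psmb7* was −0.19 and 0.09.

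**Figure D4:**
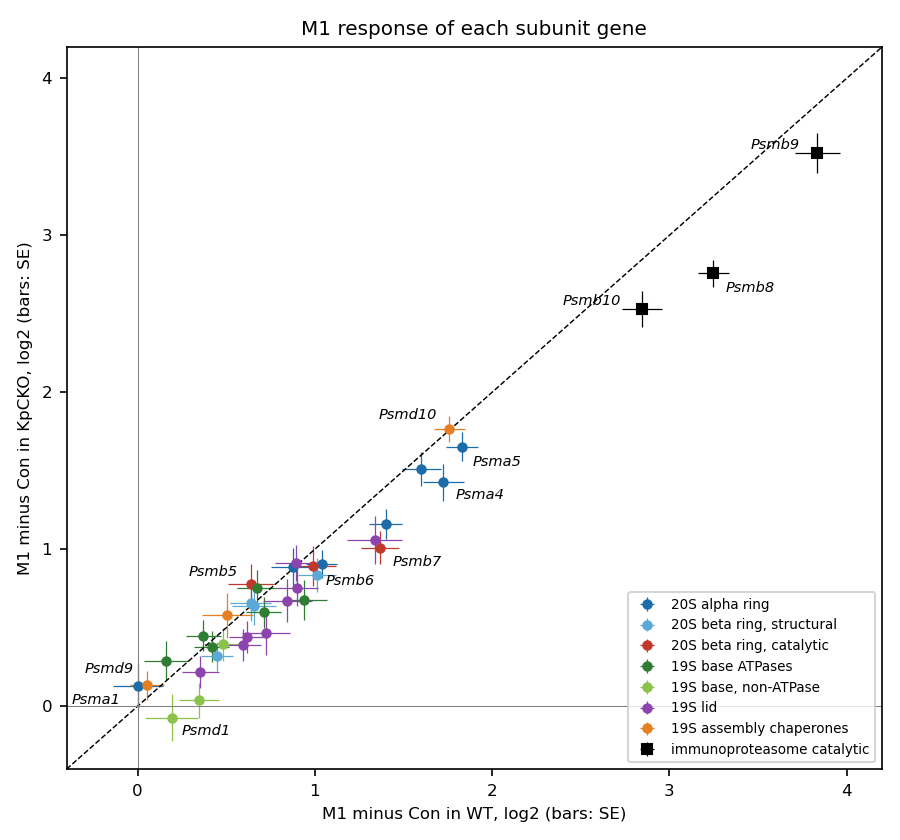
Log2 difference between M1 and Con in WT (horizontal) and in KpCKO (vertical) for the 34 subunit genes, coloured by subcomplex, and for the 3 immunoproteasome genes (black squares), with the 75th percentile as the scale. Bars are standard errors from limma, and the dashed line marks equal differences. The subunit genes spread from 0.00 to 1.83 in WT along the dashed line, 23 of them below it, and the immunoproteasome genes lie beyond 2.5 in both genotypes. With no scaling between arrays the WT values shift down, to a median of −0.06 for the 34 genes, and all 34 lie above the dashed line.

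The third comparison asked the same of IL-4. Limma called 0 of 34 genes between M2 and Con in WT, where it called 16.8% of all genes, and 5 of 34 were under an unadjusted p of 0.05. In KpCKO it called 0 of 34, where it called 10.2%, with 3 of 34 unadjusted. The values ran from −0.18 to 0.36 in WT and from −0.45 to 0.30 in KpCKO, with medians of 0.11 and 0.07. These medians were 0.03 and −0.04 with quantile normalization and 0.02 and 0.07 with normexp, and that of KpCKO was 0.0037 without the KpCKO Con array of culture 2. The lowest adjusted p in WT was that of *Psmd13*, at 0.36 (SE 0.105, limma adjusted p = 0.057), whose WT arrays were 1.08 and 1.05 in Con and 1.41 and 1.45 in M2. Both M2 arrays lay above both Con arrays in 14 of 34 genes in WT (41.2%), against 29.1% of all genes, and in 9 of 34 in KpCKO (26.5%), against 24.6%. All 4 M2 arrays lay above all 4 Con arrays in 4 of 34 (11.8%), against 14%. For a difference between the genotypes in the M2 response limma called 0 of 34 and 0.00894% of all genes, with 0 of 34 unadjusted.

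The catalytic subunits were then set beside the inducible subunits that replace them. *Psmb8*, the counterpart of *Psmb5*, was at 3.73 and 3.77 in WT Con and 6.91 and 7.08 in WT M1, and at 3.74 and 3.88 in KpCKO Con and 6.54 and 6.59 in KpCKO M1. *Psmb9*, the counterpart of *Psmb6*, was at 2.87 and 3.39 in WT Con and 6.71 and 7.22 in WT M1, and at 2.6 and 3.44 in KpCKO Con and 6.33 and 6.77 in KpCKO M1. *Psmb10*, the counterpart of *Psmb7*, was at 4.89 and 5.18 in WT Con and 7.69 and 8.07 in WT M1, and at 4.83 and 5.29 in KpCKO Con and 7.42 and 7.76 in KpCKO M1. The M1 arrays did not overlap the Con arrays in any of the 3 genes. The rise in WT was 9.5-fold for *Psmb8*, 14.3-fold for *Psmb9* and 7.18-fold for *Psmb10*, with limma adjusted p of 3.2e-06, 4.09e-06 and 5.75e-06, against 1.56-fold, 1.99-fold and 2.58-fold for *Psmb5*, *Psmb6* and *Psmb7* (limma adjusted p = 0.00415, 0.000519 and 5.62e-05). In KpCKO it was 6.77-fold, 11.5-fold and 5.78-fold, against 1.72-fold, 1.86-fold and 2.01-fold. The rise of the inducible genes was called in both genotypes under all alternative settings of the limma fit, no scaling included. Outside limma, the test of the methods with Benjamini-Hochberg adjustment called 0 of 22243 genes for M1 in KpCKO.

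The log2 difference between a counterpart and its constitutive gene within an array does not depend on a constant scaling of the array. From Con to M1 it rose by 2.29 for *Psmb8* over *Psmb5*, from −0.30 ± 0.27 (SD, n = 4) to 1.99 ± 0.52. It rose by 2.74 for *Psmb9* over *Psmb6*, from −2.42 ± 0.63 (SD, n = 4) to 0.31 ± 0.62, and by 1.5 for *Psmb10* over *Psmb7*, from 2.32 ± 0.29 (SD, n = 4) to 3.82 ± 0.28. The 4 M1 arrays were above the 4 Con arrays in each pair (exact permutation test with arrays taken as independent, two-sided p = 0.0286, the smallest that 4 arrays against 4 can give, 0.0429 adjusted over 6 comparisons). From Con to M2 the changes were 0.18, 0.40 and 0.82, and that of *Psmb10* over *Psmb7* also had no overlap (same exact permutation test, p = 0.0286, adjusted 0.0429), while the others gave p = 0.286 and 0.343 in this permutation test, adjusted 0.343 each. The arrays of a stimulus and of Con came from the same 4 mice, however, and with the arrays paired by mouse, an alternative chosen after seeing the data, every one of the 6 changes was positive in 4 of 4 pairs and the exact permutation test gave p = 0.125, the smallest that 4 pairs allow, so it called none. *Psmb10* itself was higher in M2 by 1.02 in WT and 1.19 in KpCKO (limma adjusted p = 0.00274 and 0.00264).

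**Figure D5:**
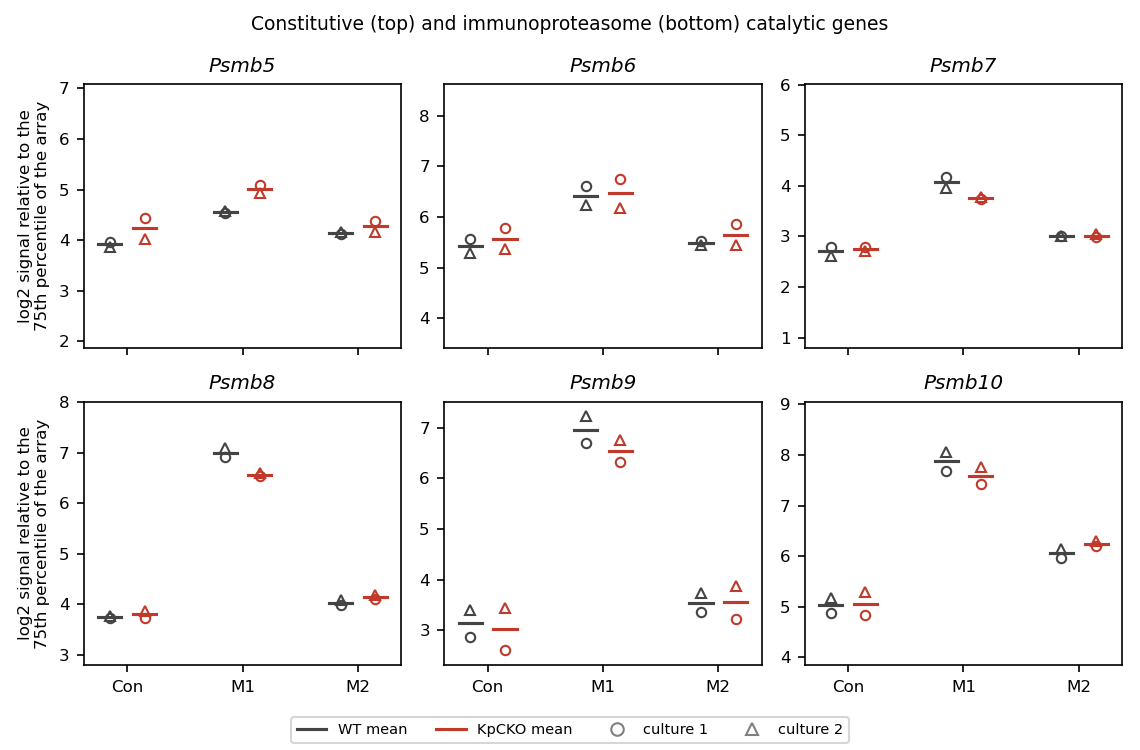
Log2 signal of the constitutive catalytic genes (top) and of the inducible gene that takes each one's place (bottom), relative to the 75th percentile of the array, in Con, M1 and M2. Circles are culture 1, triangles are culture 2 and bars are the mean of 2 arrays, in WT (grey) and KpCKO (red), and every panel spans the same number of log2 units. The inducible genes rise by 2.84 to 3.83 in WT M1 and the constitutive ones by 0.64 to 1.37, of which *Psmb5* is at −0.11 with no scaling between arrays.

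Between the genotypes in M1, *Psmb8* was lower in KpCKO by −0.43 (SE 0.087, limma adjusted p = 0.0238), while *Psmb9* and *Psmb10* did not pass, and 1 of the 3 inducible genes was thus called. The call of *Psmb8* was lost with quantile normalization (−0.18) and with no scaling (−0.04), and it was lost without either WT Con array, either KpCKO M1 array or the WT M1 array of culture 2, with adjusted p of up to 0.105. It was also lost with normexp (adjusted p = 0.127), without the replicate block (adjusted p = 0.0875), with no filter on dim probes (adjusted p = 0.0522) and with only the groups compared (adjusted p = 0.218).

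Other genes of the pathway were counted in lists. Of 5 genes for the activators and the inhibitor of the 20S core, all were higher in WT M1 and 4 in KpCKO M1, where 34.6% and 24.8% of all genes were, but in WT 2 were higher and 1 lower with no scaling between arrays. The highest was *Psme2*, a subunit of the activator induced by IFNγ, with 2.68 in WT and 2.46 in KpCKO (limma adjusted p = 4.61e-06 and 8.95e-06). Between the genotypes in M1, *Psme2* was lower in KpCKO by −0.41 (limma adjusted p = 0.0344), but by −0.07 with quantile normalization and −0.01 with no scaling, and the call was lost without any single array except WT M1 of culture 1. It was lost too with normexp, without the replicate block, with no filter on dim probes and with only the groups compared, at adjusted p of 0.123, 0.111, 0.0675 and 0.225. Of the 5 factors that assemble the 20S core, *Pomp*, which completes the β ring, was higher in M1, by 1.2 in WT and 0.96 in KpCKO. *Psmg1* and *Psmg2*, a pair of chaperones of the α ring, were lower, by −0.97 and −0.99 in WT and −0.55 and −0.68 in KpCKO. These 3 calls, and that of *Psme2* in M1, held in both genotypes under all 5 scalings. In WT M2, 3 of the 5 assembly factors were higher, where 8.63% of all genes were, against 0 with no scaling and 0 with normexp background correction, with *Psmg1* at 0.58 (limma adjusted p = 0.0364).

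Of 4 genes for proteins bound to the 19S cap, 3 were higher in WT M1, *Uchl5*, a deubiquitinase, most, by 0.91, and 2 in KpCKO M1, *Adrm1*, a ubiquitin receptor, most, by 0.44, whereas with no scaling 0 were higher in either genotype and 1 was lower in WT. Between the genotypes in M1, *Uchl5* was lower in KpCKO by −0.74 (SE 0.123, limma adjusted p = 0.0135), and by −0.34 with no scaling (limma adjusted p = 0.112). This call was lost without WT M1 of culture 2 (adjusted p = 0.07) or KpCKO M1 of culture 1 (adjusted p = 0.0685), with normexp (adjusted p = 0.218) and with only the groups compared (adjusted p = 0.167). Of 9 genes for ubiquitin and its shuttles, all were higher in WT M1 and 7 in KpCKO M1, beside the same 34.6% and 24.8% of all genes, with *Ubqln1*, a shuttle factor, at 0.99 in WT and 0.80 in KpCKO, but with no scaling 0 were higher and 1 lower in WT, and 2 were higher in KpCKO. None of these 9 passed the test between the genotypes on average.

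Of 5 genes that act on the transcription of proteasome genes, 4 were tested. *Nfe2l1* was at 3.66 and 3.56 in WT Con and 3.87 and 3.61 in KpCKO Con, and at 4.86 and 4.51 in WT M1 and 5.57 and 4.96 in KpCKO M1. The M1 arrays did not overlap the Con arrays, and the log2 difference was 1.07 in WT (SE 0.16, limma adjusted p = 0.00103) and 1.53 in KpCKO (limma adjusted p = 0.000324), or 0.32 in WT with no scaling (limma adjusted p = 0.173). Averaged over the stimuli, *Nfe2l1* was 0.29 higher in KpCKO without passing the test (limma adjusted p = 0.0784). *Nfe2l2*, the gene of Nrf2, was lower in KpCKO by −0.49 on average (SE 0.0933, limma adjusted p = 0.0155), a call lost with no scaling (adjusted p = 0.06) and without the WT Con array of culture 2 (adjusted p = 0.0513). It was higher in M1 by 1.13 in WT, or 0.39 with no scaling (limma adjusted p = 0.12) and 0.30 with quantile normalization (limma adjusted p = 0.153), and by 1.0 in KpCKO. The 20S subunits of other tissues were at the edge of detection, as *Psmb11*, the β subunit of the thymus, did not pass the filter, and *Psma8*, the α subunit of the testis, was lower in M1 by −0.87 in WT and −0.74 in KpCKO, calls that were lost with normexp (−0.45 and −0.52, adjusted p = 0.0655 and 0.0511).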

How the data were processed

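RNA of BMDMs was measured on 12 1-colour arrays, in 6 groups of 2 cultures. Spot intensities, already background-subtracted, were deposited by the authors for 43379 spots an array as Agilent Feature Extraction (version 10.7.3.1) gave them, with flags for spots above background, saturated or outlying. These intensities carry no scaling between arrays. The log2 matrix that the authors deposited matched the values used here, centred by probe, on 40749 probes with slopes of 0.99967 to 1.00037. Columns of other content were not used.

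Spots flagged as outliers were dropped, replicate spots averaged, and log2 intensities set relative to the 75th percentile of their array. Of 41174 probes, 26690 were named through their accession. The files were annotated on another build than the promoter table, so names alone were matched. Genes above background on both arrays of 1 group or more were kept (22367), and limma 3.58.1 in R 4.3.3 fitted 6 groups and culture, with 5 residual and 1.92 prior degrees of freedom and a threshold of 0.05 for the Benjamini-Hochberg adjusted p. The culture pairing comes from the series' description. Deviations of same-numbered arrays correlated at 0.162 to 0.597 in 15 pairs of groups. Tables and figures were made with Python 3.11.15, pandas 2.3.3, scipy 1.17.1 and matplotlib 3.10.9, and the fit was tested on simulated data.

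The genes and lists were chosen with earlier results of these data known. The genes named are, in each subcomplex, those with the largest and smallest averaged genotype difference, every called gene, the catalytic genes with their counterparts, and the largest movers of each list. A result that this rule would name is not reported here.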

Additional observations from a re-analysis of the deposited data

How the results depend on the processing

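The averaged genotype comparison called 1 subunit gene higher, and it called 0 with no filter on dim probes and 0 without the replicate block. It called 1 lower with genes above background on all arrays only, and 1 lower with trended variances. Within Con, the methods' t-test at its unadjusted threshold gave 1 higher. Within M1, 9 were higher with no scaling between arrays, an alternative chosen after seeing the data, and 1 each was higher with quantile normalization, normexp, genes above background on all arrays, trended variances and the methods' t-test unadjusted. Within M1, 1 was lower with trended variances and 3 with the methods' t-test unadjusted, which gave 1 lower within M2. From Con to M1 in WT, 8 were higher and 3 lower with quantile normalization, 7 higher and 7 lower with no scaling, and 12 higher by the methods' t-test after Benjamini-Hochberg adjustment. In KpCKO, 16 were higher and 1 lower with quantile normalization, 16 higher with no scaling, 18 higher with only the groups compared, and 0 by the methods' t-test adjusted or 16 unadjusted. From Con to M2 in WT, 2 each were higher with genes above background on all arrays, trended variances and the methods' t-test unadjusted, which gave 1 lower, and 2 higher in KpCKO. With 1 array left out at a time, these counts ran from 0 to 1 for the averaged comparison, from 25 to 30 for M1 in WT, from 20 to 28 for M1 in KpCKO and from 0 to 1 for M2 in WT. Without the replicate block, which pairs the arrays of a culture, M1 gave 27 higher in WT and 24 in KpCKO, and the other counts were as in the fit with the block, the averaged one excepted.

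The sign of the WT M1 difference turned with quantile normalization for *Psmb1* (−0.16), *Psmb3* (−0.0932), *Psmc3* (−0.0949), *Psmc6* (−0.22), *Psmd2* (−0.31), *Psmd3* (−0.21) and *Psmd4* (−0.0354), and in KpCKO for *Psmb1* (−0.10), *Psmc6* (−0.044) and *Psmd3* (−0.13). It turned in WT with no scaling for *Psmb1* (−0.30), *Psmb2* (−0.11), *Psmb3* (−0.0914), *Psmb5* (−0.11), *Psmc3* (−0.38), *Psmc4* (−0.036), *Psmc5* (−0.075), *Psmc6* (−0.33), *Psmd13* (−0.39), *Psmd2* (−0.40), *Psmd3* (−0.16), *Psmd4* (−0.27), *Psmd5* (−0.24), *Psmd6* (−0.13) and *Psmd8* (−0.0229). The cause was not tested. The signals of all 34 genes were well above background, and pairs of arrays limit the precision of these values.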
